A study of Mus musculus with 6 samples.

Results

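The genes described here are 9 classical markers and drivers of the epithelial to mesenchymal transition, followed in mouse embryonic stem cells (ESC), mouse embryonic fibroblasts (MEF) and 4 induced pluripotent stem cell (iPSC) lines. They are the zinc finger repressors Snai1, Snai2, Zeb1 and Zeb2, the basic helix-loop-helix factors Twist1 and Twist2, the homeobox factor Prrx1, and 2 products of mesenchymal cells, N-cadherin (Cdh2) and vimentin (Vim). They were taken by symbol from the deposited gene table, where all 9 were found among 19330 genes, and all 9 passed the filter on low counts. Cdh2 and Vim are not transcription factors, so the set holds 7 factors and 2 structural markers.

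In the epithelial to mesenchymal transition, cells give up cell to cell junctions and gain a migratory, spindle form. Factors of the Snai and Zeb families bind E-boxes in the promoters of epithelial genes such as Cdh1 and recruit corepressors, while Twist and Prrx1 factors are linked to mesenchymal genes. Reprogramming of fibroblasts to iPSC runs through the opposite change, the mesenchymal to epithelial transition, in which these factors are shut down and Cdh1 and Epcam come on.

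RNA sequencing covered 6 libraries, namely 1 of ESC, 1 of MEF, 2 of control iPSC lines (3 and 7) and 2 of palmitoylcarnitine iPSC lines (PC iPSC, 5 and 13). Palmitoylcarnitine is the carnitine ester that carries palmitate into mitochondria. No label states its dose or timing, how the lines were reprogrammed, or the strain and age of the source animals. The ESC library bears the title B6 and the source name B6/blu. ESC and all 4 iPSC lines were grown with leukemia inhibitory factor on MEF feeder cells treated with mitomycin C, and the MEF library came from fibroblasts in serum medium. Each numbered line is 1 library, and whether the lines arose in independent cultures is not stated, so each p-value reflects library to library spread that may be technical.

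Libraries held 26.51 M to 27.99 M assigned reads. As a check of the labels, 12 of 12 pluripotency markers had reads in ESC and in every iPSC line, with a summed level of 4109 to 5549 RPKM. RPKM scales the reads of a gene by its length and by the reads assigned in the library. In MEF 5 of the 12 had no read and 8 lay under 1 RPKM, Nanog among them at 0.0482, although Pou5f1 and Sox2 stood at 157.7 and 88.2. Of 20 fibroblast markers none was at 0 in any library, and their summed level was 9167 RPKM in MEF, 633.0 in ESC, 950.8 and 1818 in the control lines 3 and 7, and 2025 and 1682 in the PC lines 5 and 13. The MEF library also carried macrophage markers, 8 of 8 with reads and a summed level of 580.3 RPKM, against 13.6 to 19.98 in the iPSC lines and 68.8 in ESC. In bulk RNA fewer cells of a type and less RNA per cell cannot be told apart.

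The E-box bound by Snai and Zeb proteins, CAGGTG, was searched on both strands in the 250 bases before gene starts in RefSeq sequence of GRCm38.p6. Read from the opposite strand the motif is spelled CACCTG. Of 32817 such windows, 17.2% held at least 1 match and 2.07% at least 2. Of the 37 genes on a list of epithelial targets, 23 had windows that were searched, and 18 of their 30 windows held a match. Counted by gene, where several starts give several chances, 16 of the 23 had a match in at least 1 window. Of the 9 genes described here 6 had windows that were examined by gene, and Snai1 alone of these had a match. Snai2, Zeb1 and Cdh2, and the epithelial gene Cdh1, had no window examined by gene, so nothing is said of their E-boxes. Its window, with the E-box in capitals 126 bases before the start, is shown beside 3 epithelial genes that were lower in iPSC than in ESC. Epcam and Crb3 were chosen for display after their values were seen. Among other epithelial genes lower in iPSC than in ESC, Cldn3 had 0 matches, and Cldn4, Cldn6 and Grhl3 had 1 each. Among epithelial genes not called between iPSC and ESC, Lama5 had 2 matches, Ocln had 2 in 1 of its windows and Elf3 had 1. Dsp, Jup and Tjp1, also not called, had 0. These uncalled genes were named after their values were seen. A match is a description of the letters and shows neither binding nor a cause.
Snai1: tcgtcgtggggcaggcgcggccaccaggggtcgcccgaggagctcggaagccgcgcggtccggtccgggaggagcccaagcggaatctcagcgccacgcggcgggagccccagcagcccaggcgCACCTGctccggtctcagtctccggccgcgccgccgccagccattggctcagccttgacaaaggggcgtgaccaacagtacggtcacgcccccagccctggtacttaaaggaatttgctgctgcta
Epcam: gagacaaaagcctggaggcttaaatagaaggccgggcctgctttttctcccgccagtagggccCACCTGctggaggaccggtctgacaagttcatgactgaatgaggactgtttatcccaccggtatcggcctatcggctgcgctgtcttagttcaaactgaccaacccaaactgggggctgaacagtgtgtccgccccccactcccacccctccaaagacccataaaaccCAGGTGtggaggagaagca
Cldn7: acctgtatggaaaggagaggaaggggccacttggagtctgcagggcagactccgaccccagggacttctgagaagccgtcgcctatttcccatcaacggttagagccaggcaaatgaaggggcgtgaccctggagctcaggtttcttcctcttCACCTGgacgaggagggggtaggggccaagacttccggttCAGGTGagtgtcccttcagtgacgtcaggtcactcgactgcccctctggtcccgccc
Crb3: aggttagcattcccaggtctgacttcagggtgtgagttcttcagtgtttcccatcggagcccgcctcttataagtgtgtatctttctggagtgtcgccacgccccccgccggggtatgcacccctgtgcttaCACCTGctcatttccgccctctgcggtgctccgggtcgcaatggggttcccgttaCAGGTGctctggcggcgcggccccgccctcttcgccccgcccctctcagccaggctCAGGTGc
Snai1, on the plus strand, is at chr2:167537945-167538194. Epcam, on the plus strand, is at chr17:87635729-87635978, with matches 187 and 19 bases before the start. The Cldn7 window, on the plus strand at chr11:69965171-69965420, belongs to the second of 2 starts and has matches at 97 and 57 bases. The window of the first Cldn7 start has no match. Crb3, also on the plus strand, is at chr17:57061951-57062200 and has 3 matches, at 118, 63 and 7 bases.

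All 9 genes were highest in MEF, and 7 of 9 were lowest in ESC, with the iPSC lines between. The 2 exceptions at the low end were Twist1 and Zeb2, for which control iPSC 3 lay under ESC. All 4 iPSC lines were below MEF for 9 of the 9 genes, against 41.7% of all tested genes. They were all above ESC for 7 of the 9, against 37.3% of all tested genes. No such share was computed for the order of all 6 libraries. Each gene's level is given below by library, and the 9 genes lie on chromosomes 1, 2, 12, 16 and 18 of GRCm38 (mm10, RefSeq), all protein-coding.

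Snai1, the founding member of the Snail repressors (chromosome 2, 167538195 to 167542814), stood at 2.64 RPKM in ESC, 5.41 and 6.27 in control iPSC 3 and 7, 6.08 and 7.62 in PC iPSC 5 and 13, and 9.90 in MEF. All iPSC lines lay between ESC and MEF, and the PC and control lines overlapped. Its paralog Snai2, also called Slug (chromosome 16, 14705852 to 14709395), stood at 0.773 RPKM in ESC, 1.93 and 2.35 in the control lines, 2.98 and 3.62 in the PC lines, and 23.6 in MEF. Here both PC lines were above both control lines, and all 4 were far under MEF. The ratio of Snai1 to Snai2, each per length, was 3.42 in ESC, 2.04 to 2.81 in the iPSC lines and 0.419 in MEF. Snai1 was thus the higher of the pair in all 5 pluripotent libraries and Snai2 in MEF.

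Zeb1, which represses Cdh1 and the microRNA-200 family (chromosome 18, 5591327 to 5775468), stood at 5.79 RPKM in ESC, 7.81 and 13.4 in control iPSC 3 and 7, 15.6 and 15.0 in PC iPSC 5 and 13, and 23.1 in MEF. Both PC lines were above both control lines, but control iPSC 7 was closer to them than to control iPSC 3. Zeb2 (chromosome 2, 44983512 to 45117442) stood at 0.678 RPKM in ESC, 0.573 and 1.47 in the control lines, 1.54 and 1.21 in the PC lines, and 12.3 in MEF. The groups overlapped, and control iPSC 3 was 2.69-fold below the highest iPSC line, the widest spread among iPSC lines of the 9 genes. The deposited coverage gives 58.6% to 86.9% of the Zeb2 gene length as covered in the pluripotent libraries, against 96.2% in MEF. Zeb1 exceeded Zeb2 per length in every library, by 8.53-fold in ESC, 9.07-fold to 13.6-fold in the iPSC lines and 1.88-fold in MEF.

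Twist1, a mesoderm and neural crest factor (chromosome 12, 33957671 to 33959831), stood at 6.19 RPKM in ESC, 5.24 and 7.55 in control iPSC 3 and 7, 8.80 and 7.65 in PC iPSC 5 and 13, and 81.9 in MEF. ESC lay inside the range of the iPSC lines, and the PC lines were just above the control lines. Twist2, known as Dermo1 for its dermal expression (chromosome 1, 91801461 to 91848034), stood at 1.15 RPKM in ESC, from 42 reads. It was at 3.45 and 5.29 in the control lines, 5.44 and 4.32 in the PC lines, and 12.7 in MEF. All iPSC lines were above ESC and the PC and control lines overlapped. The ratio of Twist1 to Twist2 per length was 5.40 in ESC, 6.46 in MEF and 1.43 to 1.77 in the iPSC lines, lower in each iPSC line than in either reference library.

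Prrx1, a paired-related homeobox factor of limb and craniofacial mesenchyme (chromosome 1, 163245119 to 163315145), stood at 4.15 RPKM in ESC, 10.8 and 15.8 in control iPSC 3 and 7, 16.4 and 13.4 in PC iPSC 5 and 13, and 190.2 in MEF. It had the largest ratio of MEF to ESC of the 9 genes, 45.9-fold, with 1 library on each side and no replicate check. Among the 7 factors Prrx1 supplied 53.8% of the summed RPKM in MEF, 25.3% to 30.6% in the iPSC lines and 19.4% in ESC. That sum was 353.6 RPKM in MEF, 21.4 in ESC, 35.2 and 52.1 in control iPSC 3 and 7, and 56.9 and 52.8 in PC iPSC 5 and 13.

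Cdh2, the cadherin gained when Cdh1 is lost (chromosome 18, 16588877 to 16809246), stood at 2.59 RPKM in ESC, 5.24 and 5.85 in control iPSC 3 and 7, 6.49 and 4.92 in PC iPSC 5 and 13, and 19.6 in MEF. Its spread among iPSC lines, 1.32-fold from lowest to highest, was the smallest of the 9 genes. Cdh1, the epithelial cadherin, stood at 116.1 RPKM in ESC, 116.1 to 135.6 in the iPSC lines and 3.36 in MEF. Per length, Cdh1 exceeded Cdh2 by 44.9-fold in ESC and by 17.9-fold to 27.5-fold in the iPSC lines, while in MEF the ratio was 0.171. Cdh1 itself did not differ past the threshold between iPSC and ESC (log2 difference 0.09, SE 0.17, edgeR adjusted p = 0.757).

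Vim, the intermediate filament of mesenchymal cells (chromosome 2, 13574311 to 13582826), was the most abundant of the set. It stood at 206.9 RPKM in ESC, 227.6 and 395.5 in control iPSC 3 and 7, 440.2 and 369.2 in PC iPSC 5 and 13, and 1298 in MEF. Control iPSC 3 lay next to ESC and apart from the other iPSC lines. Vim ranked above 98.4% of the detected genes in ESC and above 98.5% to 99.2% in the iPSC lines, against 99.9% in MEF.

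**Figure D1:**
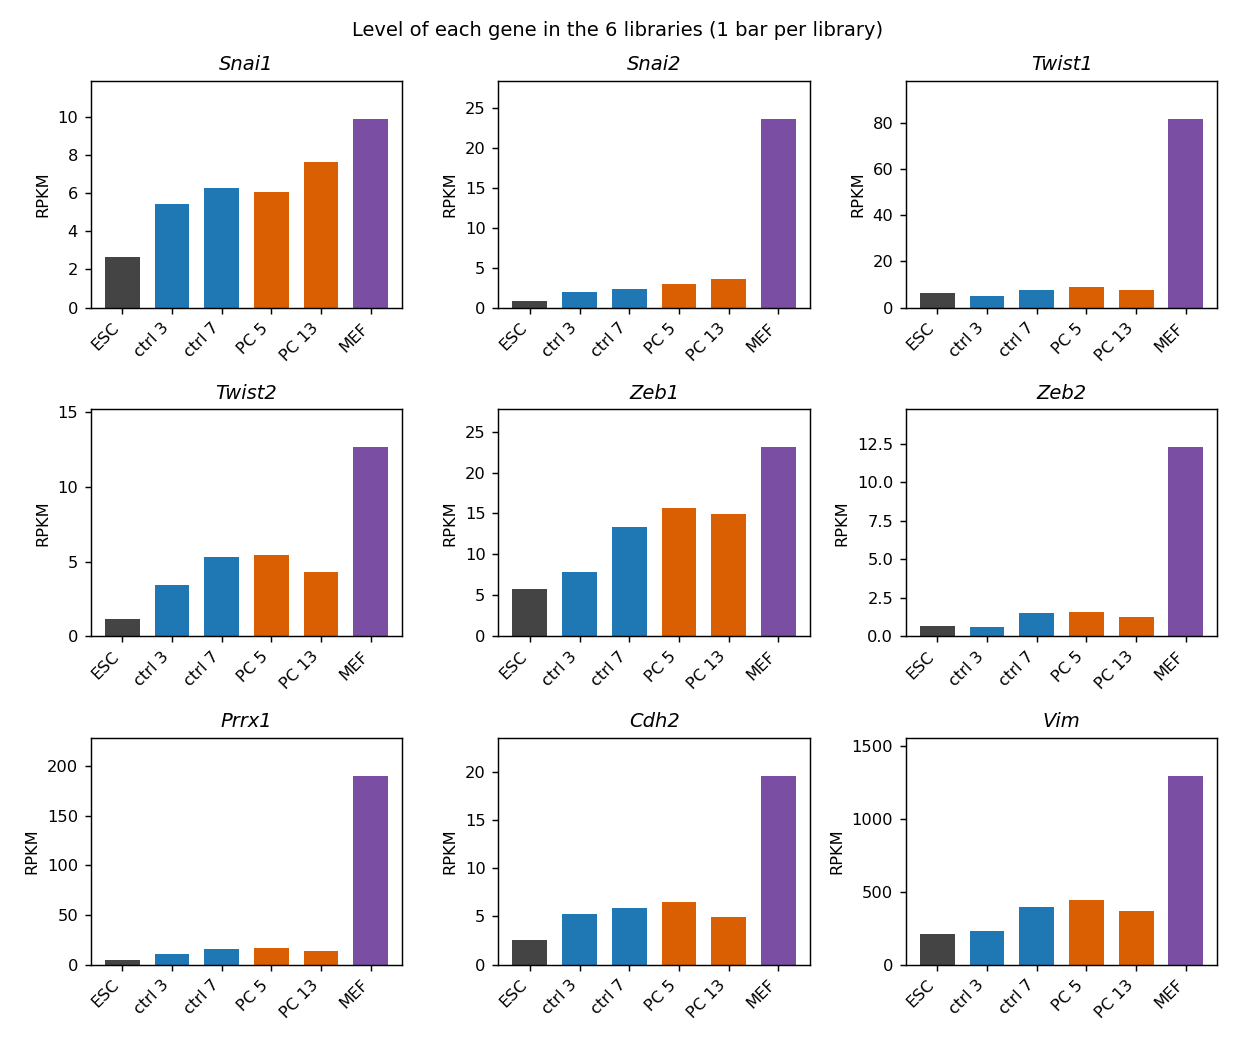
RPKM of the 9 genes in the 6 libraries, 1 bar per library and 1 panel per gene with its own axis from 0 (grey ESC, blue control iPSC, orange PC iPSC, purple MEF). MEF is the highest bar in every panel, and Snai1 (5.41 to 7.62 in iPSC against 9.90) and Zeb1 come nearest to it.

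Measured against MEF, the genes kept very different shares of the fibroblast level in the iPSC lines. Snai1 stood at 54.7% to 77.0% of MEF, Zeb1 at 33.8% to 67.6% and Twist2 at 27.2% to 43.0%. Cdh2 (25.1% to 33.1%) and Vim (17.5% to 33.9%) came next. Lowest were Snai2 (8.17% to 15.3%), Zeb2 (4.67% to 12.5%), Twist1 (6.40% to 10.7%) and Prrx1 (5.66% to 8.63%). In ESC the shares ran from 2.18% for Prrx1 to 26.7% for Snai1.

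The fibroblast markers gave their own range of shares. Their medians were 6.54% of MEF in ESC, 7.99% and 11.2% in control iPSC 3 and 7, and 13.3% and 11.4% in PC iPSC 5 and 13. Single markers in the iPSC lines ran from 0.472% for Dcn, the matrix proteoglycan decorin, in control iPSC 3 to 70.6% for Fbln2, the matrix protein fibulin 2, in PC iPSC 5. The share of Snai1 was above that of all 20 markers in control iPSC 3, control iPSC 7 and PC iPSC 13, and in PC iPSC 5 only 2 markers were above it. Zeb1 was also above all 20 in PC iPSC 13. Of the 9 genes, 5 or 6 were above the marker median in each iPSC line, and Prrx1 and Twist1 were below it in each. The part of feeder fibroblast RNA in these levels was not tested.

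**Figure D2:**
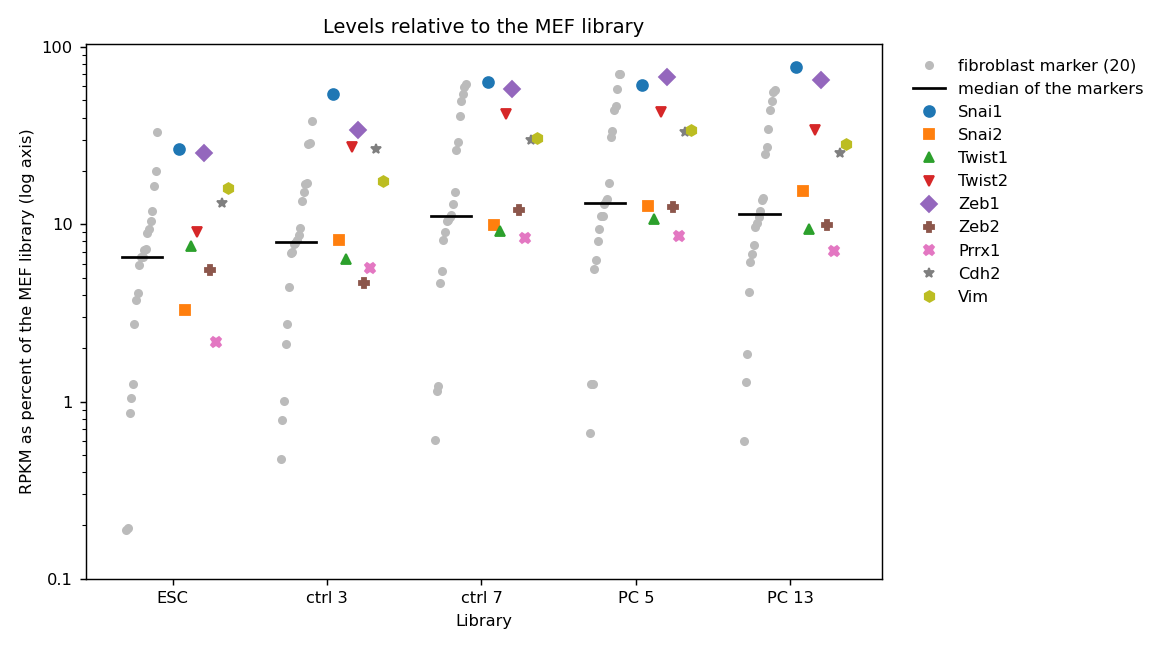
RPKM as a percent of the MEF library on a log axis, for the 9 genes (coloured symbols) and 20 fibroblast markers (grey points, with a black line at their median) in ESC and the 4 iPSC lines. Snai1 sits at or near the top of each iPSC column (54.7% to 77.0%), and Prrx1 lies below the marker median in each column.

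Set against ESC, the 4 iPSC lines had higher Snai1, Snai2, Twist2, Prrx1 and Cdh2, 5 of the 9 genes, and none was lower. Over all 16435 tested genes 10.4% were called, namely 4.71% higher and 5.71% lower. The test was edgeR's quasi-likelihood test with Benjamini-Hochberg adjustment over all tested genes at a threshold of 0.05, and the single ESC library is assumed to vary like the iPSC lines. All 9 differences were positive, with a median log2 difference of 1.10 against 0.03 over all tested genes, of which 52.1% were positive.

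Twist2 had the largest difference, a log2 value of 1.97 (SE 0.40, edgeR adjusted p = 0.0312). Snai2 rose by 1.74 (SE 0.31, edgeR adjusted p = 0.023) and Prrx1 by 1.72 (SE 0.27, edgeR adjusted p = 0.0186). The rises of Snai1, 1.22 (SE 0.29, edgeR adjusted p = 0.045), and Cdh2, 1.08 (SE 0.21, edgeR adjusted p = 0.0286), were smaller. In each of these 5 genes all 4 iPSC lines were above ESC. Zeb1 had a difference close to that of Cdh2 but a wider spread between lines and did not pass (1.10, SE 0.30, edgeR adjusted p = 0.0637). Vim (0.74, SE 0.31, edgeR adjusted p = 0.169) and Zeb2 (0.76, SE 0.48, edgeR adjusted p = 0.327) did not pass either. Twist1 had the smallest difference, 0.19 (SE 0.23), with a 95% interval from -0.37 to 0.74.

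Several of these calls changed with the tool, the filter and the lines kept. With all lines kept, Zeb1 was called by DESeq2 (adjusted p = 0.00308) and by edgeR with no filter on low counts (adjusted p = 0.0455), 6 of the 9 genes in each fit, which called 2367 and 2014 of all genes. Without control iPSC 3 edgeR called 8 of the 9 genes and 2873 of all genes, where all lines gave 1713, with Zeb1 at 1.24, Vim at 0.89 and Zeb2 at 1.01 (edgeR adjusted p = 0.000104, 0.0207 and 0.00504). Without control iPSC 7 it called 6 of the 9 and 2734 of all genes, Zeb1 included (0.87, edgeR adjusted p = 0.00248). With 1 line left out, the spread comes from the lines of the other iPSC group alone. Without PC iPSC 13 the call of Snai1 ended (1.12, edgeR adjusted p = 0.0535). With limma on log2(RPKM + 1) or log2(RPKM + 0.1) none of the 5 calls held, adjusted p running from 0.0728 to 0.0902, in fits that called only 11 and 3 of all genes. With genes under a mean of 1 RPKM left out, limma called 5 of the 9 genes and 1116 of all genes. Fibroblast markers moved with this comparison, 8 of 20 called higher in iPSC and 0 lower, with 19 of 20 positive and a median log2 difference of 1.27. Their part in the result was not tested.

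**Figure D3:**
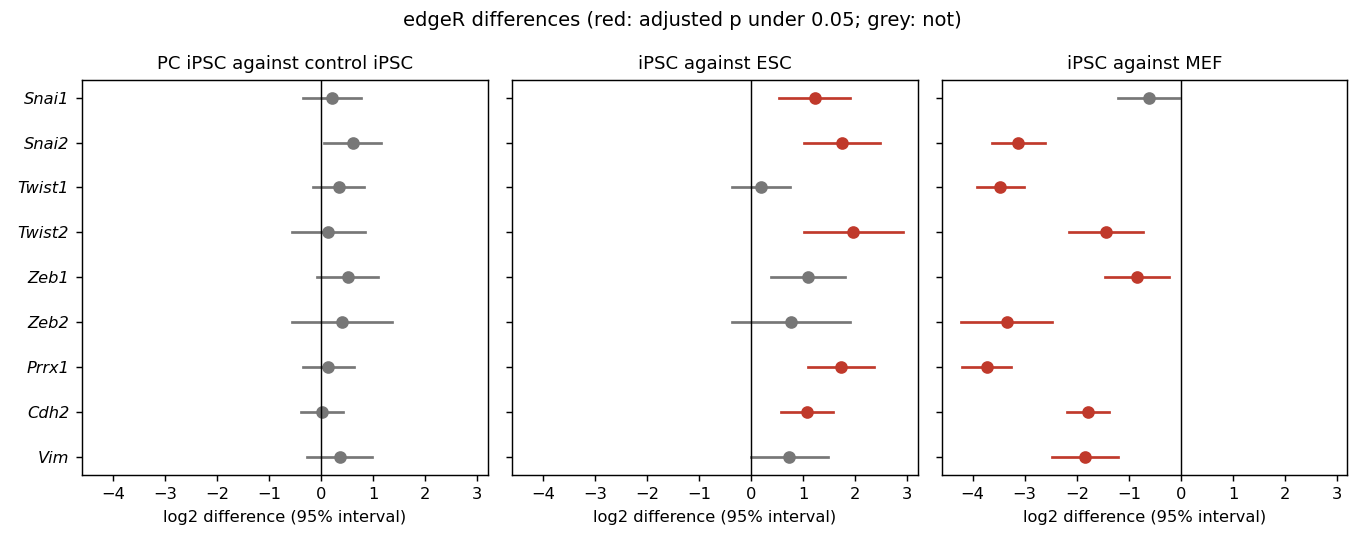
Log2 differences from edgeR with 95% intervals for PC against control iPSC, iPSC against ESC and iPSC against MEF, red where adjusted p was under 0.05. Against ESC 5 genes are red and to the right of 0, against MEF 8 are red and to the left, and between PC and control iPSC all 9 are grey.

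Against MEF, 8 of the 9 genes were lower in iPSC. Of all tested genes 68.1% were called, namely 36.5% higher and 31.6% lower. Prrx1 had the largest fall, a log2 difference of -3.73 (SE 0.20, edgeR adjusted p = 1.55e-05). Twist1 followed at -3.47 (SE 0.19), Zeb2 at -3.35 (SE 0.37) and Snai2 at -3.13 (SE 0.21). Vim (-1.85, SE 0.26), Cdh2 (-1.78, SE 0.17) and Twist2 (-1.43, SE 0.30) fell less. Zeb1 had the smallest called fall, -0.84 (SE 0.26, edgeR adjusted p = 0.0245), and its call ended with limma on both log2 RPKM scales (adjusted p = 0.0688 and 0.0725). Snai1 did not pass (-0.62, SE 0.25, edgeR adjusted p = 0.0597), with a 95% interval from -1.21 to -0.03. It did pass without PC iPSC 13 (-0.72, edgeR adjusted p = 0.0346) and with limma over genes with a mean of at least 1 RPKM (adjusted p = 0.0312). The single MEF library is assumed to vary like the iPSC lines.

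Between PC and control iPSC none of the 9 genes was called by edgeR, and none by DESeq2. Over all tested genes edgeR called 0%, and 2.34% had an unadjusted p under 0.05. At that level edgeR gave Snai2 alone and DESeq2 gave Zeb1 alone. All 9 differences were positive, with a median of 0.34 against 0.00 over all tested genes, of which 49.6% were positive. The fibroblast markers had a similar shift, 19 of 20 positive with a median of 0.37, and their part here was not tested. Among the 9 genes Snai2 had the largest difference, 0.60 (SE 0.23, edgeR adjusted p = 0.963, 95% interval 0.05 to 1.15). Zeb1 followed at 0.51 (SE 0.25, interval -0.08 to 1.09), and Cdh2 was lowest at 0.02 (SE 0.17, interval -0.39 to 0.42). The groups did not overlap for 3 of the 9 genes, Snai2, Twist1 and Zeb1, while 31.4% of all tested genes did not overlap.

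Leaving out control iPSC 3 brought Vim from 0.35 to 0.01 and Zeb1 from 0.51 to 0.18, and turned the sign of Zeb2 (-0.12), Twist2 (-0.14), Prrx1 (-0.11) and Cdh2 (-0.06). Snai2 stayed at 0.47. Leaving out control iPSC 7, so that control iPSC 3 was the only control line, called Zeb2 (1.25, edgeR adjusted p = 0.00202) and Zeb1 (0.96, edgeR adjusted p = 0.00716). That fit called 309 of all genes, 285 of them higher in PC iPSC, and its spread comes from the PC lines alone, with the lone control line assumed to vary like them. Without PC iPSC 5 the signs of Cdh2 (-0.16) and Twist2 (-0.01) turned.

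Among the 4 iPSC lines, control iPSC 3 was the lowest for 8 of the 9 genes, Cdh2 being the exception, where it was lowest for 29% of all tested genes. PC iPSC 5 was the highest for 7 of 9, against 37.3% of all tested genes, and PC iPSC 13 was the highest for Snai1 and Snai2. As log2 distance from the mean of the 4 lines, control iPSC 3 stood at -0.97 for Zeb2, -0.68 for Zeb1 and -0.61 for Vim. It stood at -0.46 for Snai2, -0.45 for Twist1, -0.40 for Twist2 and -0.37 for Prrx1. Snai1 (-0.22) and Cdh2 (-0.10) deviated least. The 20 fibroblast markers had a median of -0.62 in that line and 0.17 in control iPSC 7, while the PC lines 5 and 13 had 0.36 and 0.12. In PC iPSC 13 Snai1 (0.28), Snai2 (0.45) and Zeb1 (0.26) lay above that marker median. In PC iPSC 5 all of the 9 genes but Zeb2 (0.46) lay below it, from -0.05 for Snai1 to 0.34 for Vim. The part of the fibroblast markers in the order of lines was not tested.

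**Figure D4:**
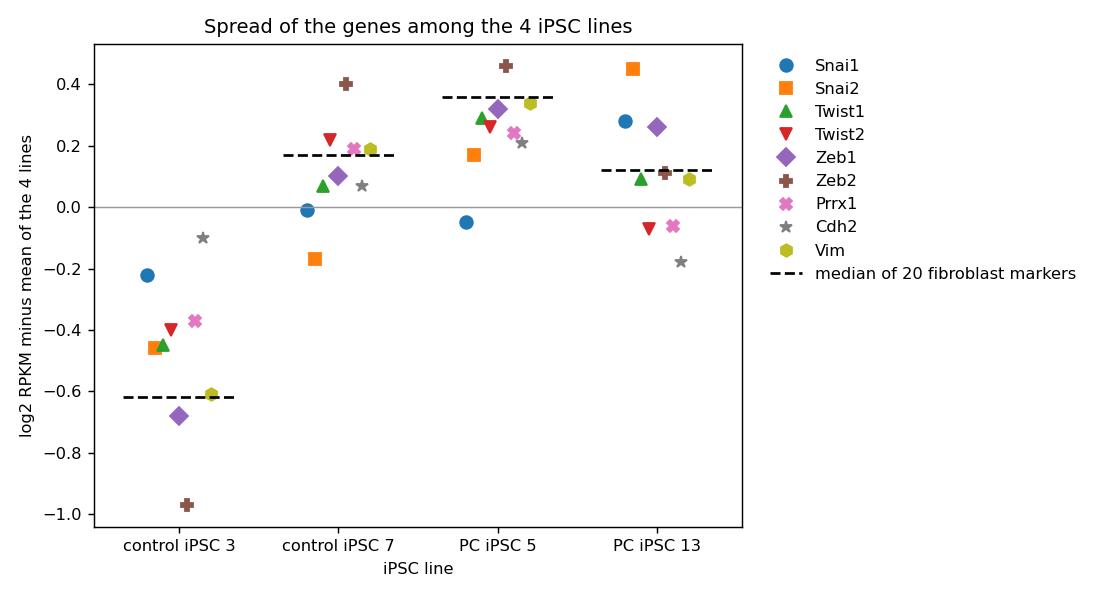
Log2 RPKM minus the mean of the 4 iPSC lines, for each of the 9 genes (symbols) and as the median of 20 fibroblast markers (dashed line), by line. All 9 symbols are below 0 in control iPSC 3, from -0.10 for Cdh2 to -0.97 for Zeb2, and Snai1 and Snai2 stand highest in PC iPSC 13.

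Other transcription factors of the transition formed a list of 25 genes. Of these 5 were higher in iPSC than in ESC, Klf8 among them, and 1, Sox4, was lower, with a median log2 difference of 0.05. Hmga2, an architectural chromatin protein, rose by 2.05 (SE 0.20, edgeR adjusted p = 0.00636), from 4.62 RPKM in ESC to 19.6 ± 1.58 in iPSC (SD, n = 4). The T-box factor Tbx3 rose by 1.41 (SE 0.17), from 21.6 to 59.0 ± 2.92 RPKM. Prrx2, the paralog of Prrx1, rose by 1.37 (SE 0.29), from 8.44 to 22.5 ± 4.81 RPKM, and Id3, an inhibitor of basic helix-loop-helix factors, rose by 1.36 (SE 0.18). Against MEF 19 of the 25 were lower and 5 were higher, where 31.6% of all tested genes were called lower and 36.5% higher. Snai3, the third Snail gene, had no read in MEF and 2.84 RPKM in ESC, and stood at 0.866 to 1.38 in the iPSC lines.

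In the TGF-beta pathway, a main inducer of Snai1 and Zeb factors, 3 of 23 genes were higher in iPSC than in ESC and 2 were lower. The receptor Tgfbr2 rose by 1.68 (SE 0.27, edgeR adjusted p = 0.0198), from 1.95 RPKM in ESC to 4.82 and 6.55 in control iPSC 3 and 7 and 8.60 and 6.13 in PC iPSC 5 and 13, with 105.6 in MEF. The coreceptors Tgfbr3 (1.36, SE 0.23) and Eng (0.86, SE 0.15) rose as well. The pathway repressors Skil (-1.61, SE 0.14) and Ski (-0.61, SE 0.13) were lower, of which Ski was named after its value was seen.

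Among corepressors and turnover factors of Snai1, 3 of 23 genes were higher in iPSC than in ESC and 2, Limd1 and Ajuba, were lower. Ctbp2, the corepressor bound by Zeb proteins, rose by 0.81 (SE 0.16, edgeR adjusted p = 0.0296), Btrc, a subunit of the ligase that degrades Snai1, by 0.79 (SE 0.15), and the kinase Lats2 by 1.27 (SE 0.18). Limd1 fell by 0.64 (SE 0.14). Against MEF 13 of the 23 (56.5%) were higher in iPSC, among them the Polycomb subunits Suz12 (2.87, SE 0.33) and Ezh2 (2.20, SE 0.18). Over all tested genes 36.5% were called higher. The other 7 called were lower (30.4%), near the 31.6% of all tested genes.

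Epithelial genes were mostly lower or not called. Of 35 tested, 15 were lower in iPSC than in ESC, with a median log2 difference of -1.24. Over all tested genes 5.71% were called lower. The splicing regulator Esrp1 stood at 12.3 RPKM in ESC and 0.668 to 1.23 in the iPSC lines, with no read in MEF (log2 difference from ESC -3.80, SE 0.25, edgeR adjusted p = 0.00305). The claudin Cldn7 stood at 35.7 RPKM in ESC, 7.38 and 7.60 in control iPSC 3 and 7 and 11.1 and 5.06 in PC iPSC 5 and 13 (-2.24, SE 0.33, edgeR adjusted p = 0.0165). The adhesion molecule Epcam (-2.03, SE 0.14) and the polarity protein Crb3 (-1.93, SE 0.23) also fell, while Cdh1 did not pass as given above. Against MEF 25 of the 35 were higher in iPSC and 3 were lower, where 36.5% of all tested genes were called higher and 31.6% lower. Between PC and control iPSC 0 of the 35 were called.

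A list of 26 mesenchymal products left out Cdh2 and Vim. Against ESC 1 of the 26 was called higher (3.8%, near the 4.71% of all tested genes), the cadherin Cdh11, which rose by 1.10 (SE 0.26, edgeR adjusted p = 0.0431) to 8.84 ± 1.62 RPKM (SD, n = 4) from 4.0, with 242.7 in MEF. The list's median was 0.85 and 22 of 26 differences were positive, against a median of 0.03 and 52.1% positive over all tested genes. Against MEF 14 of the 26 were lower and 5 were higher, where 31.6% of all tested genes were called lower and 36.5% higher. The 5 higher genes were Spp1 and the contractile genes Acta2, Cnn1, Tagln and Tpm2. Cnn1 stood at 1.35 RPKM in MEF, 23.1 in control iPSC 3 and 79.5 to 91.3 in the other iPSC lines. Acta2, smooth muscle actin, stood at 32.6 in MEF, 173.9 in control iPSC 3 and 428.9 to 539.9 in the other iPSC lines, and 189.9 in ESC. Acta2, Tagln and Tpm2 were named after their values were seen. The cells behind these transcripts were not identified.

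**Figure D5:**
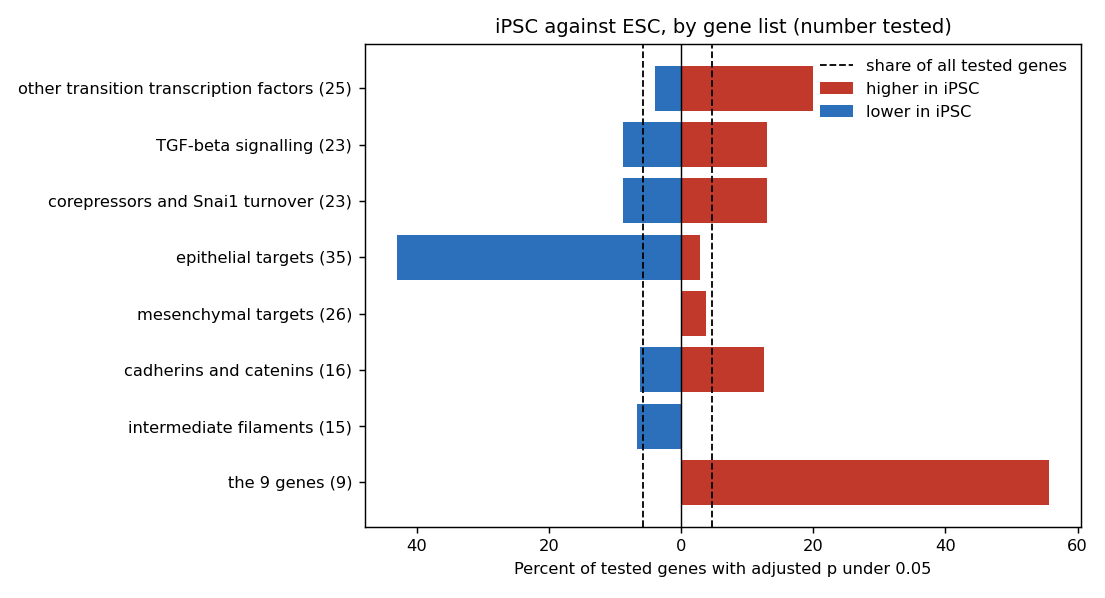
Percent of tested genes called higher (red, right) or lower (blue, left) in iPSC than in ESC for the 9 genes and 7 lists of related genes, with dashed lines at the shares of all tested genes (4.71% and 5.71%). Among the sets shown, the 9 genes stand out to the right and the epithelial targets to the left. The fibroblast markers are not shown, and 8 of those 20 were called higher and 0 lower.

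Related gene families gave context for Cdh2 and Vim. Of 16 cadherin and catenin genes, 2 were higher in iPSC than in ESC (Cdh11 and Ctnnd2) and 1, the placental cadherin Cdh3, was lower at -1.30 (SE 0.30, edgeR adjusted p = 0.0423). These are 12.5% and 6.2%. Over all tested genes 4.71% were called higher and 5.71% lower in this comparison. Of 15 tested intermediate filament genes, 0 were higher by edgeR and 1, the neuronal filament Prph, was lower (-4.12, SE 0.27, edgeR adjusted p = 0.00305). Primitive streak and neural markers were mostly low. Of 12 primitive streak and mesoderm markers 10 or 11 lay under 1 RPKM in each pluripotent library, and of 14 neural and neural crest markers 11 or 12 did. Between iPSC and ESC 0 of 10 tested primitive streak markers were higher and 1, Wnt3, was lower. Of 13 tested neural markers 0 were higher and 2, Neurod1 and Tubb3, were lower. Endothelial markers were not all low, with 4 or 5 of 8 under 1 RPKM in each pluripotent library and Pecam1 at 68.3 to 108.3 RPKM. Tie1 was the 1 of 7 tested endothelial markers called higher in iPSC than in ESC, and 0 were lower. The part of these lineage markers in the levels of the 9 genes was not tested.

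The genes most like each of the 9 across the 6 libraries were found by the smallest root mean square difference of centred log2(RPKM + 0.5) among 12004 candidates. All pairs share the same 6 libraries and their depth, so likeness is a description. Nearest to Prrx1 were the collagen receptor gene Ddr2 (0.11) and Tgfbr2 (0.13), and nearest to Twist1 were Col6a2 (0.09) and Igf2 (0.09). Zeb1 was followed most closely by Papss2 (0.07) and Fjx1 (0.10), Zeb2 by Arhgap31 (0.07) and Gpr153 (0.11), and Vim by P3h4 (0.06) and Hist3h2a (0.07). Snai1 had Ankrd44 (0.10) and Tbc1d19 (0.11), Snai2 had Angptl7 (0.12) and Pbp2 (0.17), Twist2 had Ikbke (0.13) and Epha3 (0.13), and Cdh2 had Rnf150 (0.07) and Creb3l2 (0.08). Within the set the closest pair was Twist1 and Zeb2 at 0.22.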

How the data were processed

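Messenger RNA libraries of 6 samples were analysed. Per the file headers, the deposited values are uniquely assigned read counts per gene, the share of each gene covered, and RPKM scaled by gene length and library total by the authors. The submitters' processing notes list CASAVA 1.8.2 and mm10 without saying what each did. No source used here names the aligner, counter, annotation or strand setting. Reads of overlapping or antisense genes may therefore not be told apart. Series and per-library tables held identical counts (0 differences), and a dash was read as 0. The deposited RPKM differed by over 0.1% from that recomputed from counts, length and total in at least 1 library for 92 of 19330 genes, 0 of the 9 members among them. The test of counts was edgeR 4.0.16 under R 4.3.3 (TMM scaling, default filter, 16435 genes, 4 group means, 2 residual degrees of freedom). DESeq2 1.42.0, limma 3.58.1 with a trend on log2(RPKM + 1) or log2(RPKM + 0.1), upper-quartile scaling, no filter, a mean RPKM of at least 1, a fit of the 4 iPSC libraries alone and leaving out each line were alternatives. ESC against MEF had 1 library each and no test. Members and gene lists were chosen with earlier results of these data known. The named genes were, from each list and comparison, up to 4 called genes of largest absolute difference, or the 2 of highest mean RPKM where none was called, and for every member the 2 genes of most like pattern. Not every gene this rule selects is printed. Some genes outside it are marked as named after their values were seen. Others outside it carry no such mark, among them Klf8, Sox4, Ajuba, Fbln2, Nanog, Sox2, Cldn3 and Grhl3. Some list genes are not reported here.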

Additional observations from a re-analysis of the deposited data

How the results depend on the processing

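No paired analysis was possible because control lines 3 and 7 and PC lines 5 and 13 share no number. Between PC and control iPSC, leaving out 1 line each gave 0 to 2 of the 9 genes called and 0 to 309 of all genes, the highest values without control iPSC 7. The same fits gave differences from -0.16 to 0.18 for Cdh2, -0.11 to 0.45 for Prrx1, -0.14 to 0.48 for Twist2 and -0.12 to 1.25 for Zeb2. Against ESC they gave 4 to 8 of the 9 genes and 1781 to 2873 of all genes, where all lines gave 5 and 1713, with 2873 without control iPSC 3 and 2734 without control iPSC 7. Also against ESC, limma called 0 of the 9 and 11 of all genes with a pseudocount of 1, 0 and 3 with 0.1, and 1116 of all genes where genes averaging under 1 RPKM were dropped. The cause was not tested. Of the calls against ESC, 45.2% were higher in iPSC by edgeR and 55.3% by DESeq2. Against MEF the counts stayed within 1.5 times under every alternative tried. With 42 and 45 reads in ESC, Twist2 and Snai2 have the least depth, and no interval covers variation between ESC cultures.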
